A study of Mus musculus with 4 samples.

Results

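The 6 mouse genes of type IV collagen, Col4a1 to Col4a6, were followed in single-nucleus RNA sequencing of whole hearts from wild-type mice at postnatal day 12. They were taken by symbol from the gene list that all 4 deposited matrices share, 6 of 32285 mouse genes, and raw UMI counts (unique molecular identifiers, each standing for 1 captured RNA molecule) were summed per library and cell class. The genes were chosen by a rule drawn up with their cardiomyocyte levels in these libraries already known, and on the difference of those levels between YAP5SA and control, so that difference is described here and not tested.

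Each of the 4 groups was 1 library: YAP5SA on chow, control on chow, YAP5SA on HFD and control on HFD. YAP5SA mice were injected at postnatal day 7 with AAV-cTNT-YAP5SA, an adeno-associated virus of serotype AAV9 in which the cardiac troponin T promoter, active in cardiomyocytes, drives an activated form of YAP, the transcriptional co-activator restrained by the Hippo pathway. Control mice were injected with saline, so the virus and its cargo cannot be told apart. HFD is a high-fat diet of the mother, and pups were raised under maternal chow or HFD for 5 days. No source used here gives the number of hearts behind a library, and no group has a replicate. The diet was taken from the sample titles. The treatment label of the YAP5SA + Chow library names a high-fat diet, and that of the Control + HFD library names chow. Should those treatment labels hold, diet would change together with the vector in every YAP5SA contrast. The YAP5SA library on chow held 298 UMIs of Xist and 4760 of the Y-linked Ddx3y, the pattern of male mice. The other libraries held at least 106671 UMIs of Xist and at most 17 of Ddx3y, the pattern of females. This bears on the X-linked pair Col4a5 and Col4a6 in every contrast that uses the YAP5SA library on chow; on HFD both libraries were female by these genes. Mouse Yap1 gave 5462 and 6856 UMIs in the YAP5SA libraries on chow and HFD, against 5519 and 6566 UMIs in the control libraries, and no source used here says whether transgene reads count toward it.

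The libraries held 51721988 UMIs in YAP5SA on chow, 43408234 in control on chow, 61191454 in YAP5SA on HFD and 57509435 in control on HFD, and 32143 of 36648 barcodes were kept after filtering. Clusters were named from marker genes and are called "-like". Cardiomyocyte-like nuclei numbered 4764 in YAP5SA on chow, 3541 in control on chow, 5081 in YAP5SA on HFD and 2998 in control on HFD. Unnamed clusters held 4.66%, 5.22%, 5.15% and 9.38% of nuclei in that order of libraries. Barcodes also found in another library numbered 72, 49, 81 and 70 in the same order. An unnamed cluster led by Zfp804b and Btnl9 showed 7 of 9 fibroblast markers, in 1294 nuclei with a median of 11953 UMIs. Its leading genes held the pericyte marker Rgs5 and no fibroblast marker, so it stayed unnamed. In control on HFD it held 6611 UMIs of Col4a1, against 4769 in the fibroblast-like class, and these do not enter the class values. Levels are given as CPM, UMIs per 1000000 UMIs of the same class and library, and fewer nuclei of a kind within a class cannot be told apart from less RNA per nucleus in such sums.

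Type IV collagen is the network-forming collagen of basement membranes, the thin matrix sheets that surround each cardiomyocyte and underlie endothelium. Its chains assemble inside the cell as trimers, mainly α1α1α2 in most tissues, α3α4α5 in kidney glomerulus, lung and cochlea, and α5α5α6 in some epithelia and around smooth muscle. Mutations of COL4A3, COL4A4 or COL4A5 in humans cause Alport syndrome, and those of COL4A1 or COL4A2 cause small-vessel disease. The genes lie as 3 pairs, each pair head to head and read in opposite directions from neighbouring starts.

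In mm10 with the GENCODE vM21 annotation, Col4a1 (ENSMUSG00000031502) lies on the minus strand at chr8:11198423-11312826 and Col4a2 (ENSMUSG00000031503) on the plus strand at chr8:11312805-11449287, so that their starts are 21 bases apart and the 2 genes overlap. Col4a4 (ENSMUSG00000067158) lies on the minus strand at chr1:82448423-82586849 and Col4a3 (ENSMUSG00000079465) on the plus strand at chr1:82586921-82722059, with starts 72 bases apart. Col4a6 (ENSMUSG00000031273) lies on the minus strand at chrX:141165403-141474076 and Col4a5 (ENSMUSG00000031274) on the plus strand at chrX:141475385-141689234, with starts 1309 bases apart. Besides the overlap of Col4a1 with Col4a2, genes annotated on the opposite strand overlap 5 members, namely Gm15418 in Col4a1, Gm15419 in Col4a2, C430014B12Rik in Col4a3 and the pseudogenes Gm15282 in Col4a5 and Gm15078 and Gm15079 in Col4a6. The sources used here do not say whether the counting used the strand, so reads of these overlapping genes may not be separated from those of the members.

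The first 2 stretches below are printed because they are the bases where the starts of a pair overlap or face each other, and the third because it holds the only TEAD match found at a member. They come from the RefSeq promoter table (GRCm38.p6, the build mm10) and run 5′ to 3′. The first is the 22-base overlap of Col4a1 and Col4a2 at chr8:11312805-11312826 on the plus strand. The second is all 71 bases between the starts of Col4a4 and Col4a3 at chr1:82586850-82586920, read on the minus strand. The third lies at chrX:141474064-141474093 on the minus strand around the start of Col4a6, with capitals on an M-CAT sequence (CATTCCT), the element that TEAD factors, the DNA-binding partners of YAP, are known to bind.
Col4a1 and Col4a2 overlap: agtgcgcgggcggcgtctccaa
Col4a4 to Col4a3: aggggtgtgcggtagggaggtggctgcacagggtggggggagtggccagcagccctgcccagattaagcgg
Col4a6 start: cccgtccccctcCATTCCTtcctccctggg
Both shared stretches are rich in G and C, at 72.7% and 69.0%. Over windows from 250 bases before to 50 bases after a start, searched on both strands, the TEAD sequence GGAATG was in 14.6% of the 32544 windows of the table, and CATTCCT, which overlaps it, was in 5.38%. Of the 5 members with a window (Col4a3 is the other), Col4a6 held 1 match of each, the same bases, and Col4a1, Col4a2, Col4a4 and Col4a5 held none. A match is a description of letters and not of binding.

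In cardiomyocyte-like nuclei the Col4a3 and Col4a4 pair was far higher with YAP5SA on both diets. Col4a3, which encodes the α3 chain, stood at 1077 CPM in YAP5SA on chow, against 18.8 CPM in control on chow, and at 617 CPM in YAP5SA on HFD, against 12.3 CPM in control on HFD. Behind these levels were 29336, 439, 17733 and 251 UMIs in the same order. Col4a4, which encodes the α4 chain, stood at 1063 CPM in YAP5SA on chow, against 19.2 CPM in control on chow, and at 547 CPM in YAP5SA on HFD, against 20 CPM in control on HFD. For both genes each YAP5SA library lay far above both control libraries, and the YAP5SA library on HFD lay below that on chow. The log2 fold of Col4a3 was 5.84 on chow (95% counting interval 5.71 to 5.98) and 5.65 on HFD (5.47 to 5.84), and that of Col4a4 was 5.79 on chow (5.65 to 5.93) and 4.77 on HFD (4.63 to 4.92). These intervals cover counting error only and say nothing of the spread between animals. Among 8469 genes with a mean of at least 10 CPM, Col4a3 and Col4a4 ranked 37 and 38 by fold on chow and 22 and 31 on HFD. Of 434 head-to-head gene pairs with starts within 1000 bases and both partners at that level, theirs was the only pair with both partners at least 2-fold higher on both diets, which describes genes already chosen for this difference.

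The other pairs differed by far smaller amounts in cardiomyocyte-like nuclei. Col4a1, the α1 chain gene, stood at 274 CPM in YAP5SA on chow, against 142 CPM in control on chow, and at 188 CPM in YAP5SA on HFD, against 115 CPM in control on HFD. Col4a2, the α2 chain gene, stood at 452 CPM in YAP5SA on chow, against 215 CPM in control on chow, and at 293 CPM in YAP5SA on HFD, against 181 CPM in control on HFD. For both genes of this pair the YAP5SA library was above its control on each diet, with log2 folds of 0.94 and 1.07 on chow and of 0.71 and 0.70 on HFD. Col4a5, the α5 chain gene, stood at 530 CPM in YAP5SA on chow, against 210 CPM in control on chow, and at 500 CPM in YAP5SA on HFD, against 230 CPM in control on HFD. Col4a6, the α6 chain gene, was the lowest member, at 24.9 CPM in YAP5SA on chow, against 11.4 CPM in control on chow, and at 21.0 CPM in YAP5SA on HFD, against 12.2 CPM in control on HFD. The log2 fold was 1.33 on chow and 1.12 on HFD for Col4a5, and 1.13 on chow and 0.78 on HFD for Col4a6, so the X-linked pair was also higher with YAP5SA between the libraries that were both female.

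**Figure D1:**
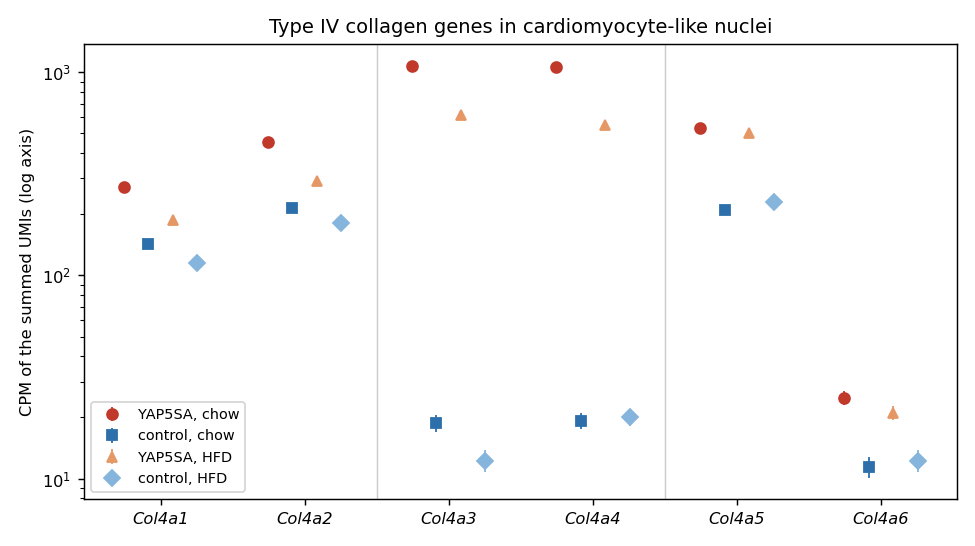
Levels of the 6 type IV collagen genes in cardiomyocyte-like nuclei, in CPM on a log axis, with 1 point per library and exact Poisson 95% intervals for counting error. Col4a3 and Col4a4 lie at 547 to 1077 CPM in the YAP5SA libraries and at 12.3 to 20 CPM in the control libraries, while the other 4 genes differ by far less.

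By the 2-fold mark, 5 of 6 members were higher with YAP5SA on chow (all but Col4a1), where 8.56% of 8469 genes were, and 0 of 6 were lower, where 7.0% of genes were. On HFD, 3 of 6 members were at least 2-fold higher (Col4a3, Col4a4 and Col4a5), where 10.9% of genes were, and 0 of 6 were lower, where 3.6% were. The median log2 fold of all 8469 genes was -0.06 on chow and 0.13 on HFD. On HFD, scaling by trimmed means (TMM) moved all log2 folds by -0.19 and scaling by DESeq2 size factors moved them by -0.25; the share of genes that were higher among those past 2-fold was then 59.2% and 54.0%, against 75.1% with CPM. Col4a5 on HFD fell short of 2-fold under both scalings, at log2 folds of 0.93 and 0.87, and no member changed direction under either scaling. As the genes were chosen with these values known, nothing is read from their counts against the background shares.

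Per kilobase of annotated gene span, a rough scale for setting members side by side, the order of the chains differed between YAP5SA and control. In YAP5SA on chow Col4a3 was at 7.97 and Col4a4 at 7.68 CPM per kb, above Col4a2 at 3.31, Col4a5 at 2.48 and Col4a1 at 2.39. In control on chow Col4a2 came first at 1.58 CPM per kb, followed by Col4a1 at 1.24 and Col4a5 at 0.983, while Col4a3 and Col4a4 were each at 0.139. On HFD Col4a3 was at 4.57 CPM per kb in the YAP5SA library, against 0.0908 in the control library, and Col4a4 was at 3.95 in the YAP5SA library, against 0.144 in the control library. Nuclear RNA carries many intronic reads in such data, and the sources used here do not say whether they were counted, so the span is an approximate divisor.

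The cardiomyocyte-like class was made of 8 clusters, and different clusters held most of it in YAP5SA and control. A cluster led by Srrm4 and Plekhh1 held 7.07% of the class in YAP5SA on chow, against 86.5% in control on chow, and 1.63% in YAP5SA on HFD, against 81.0% in control on HFD. In the YAP5SA libraries much of the class lay in clusters led by Cemip and Ptchd4 (27.6% on chow and 16.2% on HFD), by Dscaml1 and Wscd2 (27.9% and 16.9%) and by Art5 and Art1 (11.8% and 39.3%). The values below describe clusters that were built from these same counts, with Col4a1, Col4a3, Col4a4 and Col4a6 among the variable genes, and carry no test.

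Within YAP5SA hearts the α3 and α4 genes were unevenly spread over cardiomyocyte-like clusters. The cluster led by Cemip and Ptchd4 stood at 2607 CPM of Col4a3 on chow and 2391 CPM on HFD, and held 78.6% and 78.5% of all cardiomyocyte-like Col4a3 UMIs of the YAP5SA libraries. It also held 76.0% and 75.0% of their Col4a4 UMIs, 51.4% and 38.6% of Col4a5 UMIs and 43.1% and 30.1% of Col4a2 UMIs. So the α3 and α4 genes were more concentrated there than the α5 and α2 genes. This cluster showed 6 of the 14 cardiomyocyte markers. The cluster led by Dscaml1 and Wscd2 was at 530 CPM of Col4a3 on chow and 357 CPM on HFD. When the 6 members were left out of the clustering, the cluster with the highest Cemip level held 1840 nuclei in YAP5SA on chow and 947 in YAP5SA on HFD. It stood at 2185 and 2217 CPM of Col4a3 and held 88.1% and 82.2% of the class's Col4a3 UMIs. It was picked by its Cemip level and was not matched nucleus by nucleus to the cluster above.

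The clusters led by Srrm4 and by Art5 held few α3 and α4 transcripts in every library. The cluster led by Srrm4 and Plekhh1 had 17.9 CPM of Col4a3 in YAP5SA on chow, against 16.4 CPM in control on chow, and 10.2 CPM in YAP5SA on HFD, against 9.06 CPM in control on HFD. The cluster led by Art5 and Art1 had 22.7 CPM in YAP5SA on chow, against 7.99 CPM in control on chow, and 12.9 CPM in YAP5SA on HFD, against 0 UMIs in the 24 nuclei of control on HFD. Col4a4 in the Srrm4 cluster was at 30.4 CPM in YAP5SA on chow, against 14.3 CPM in control on chow, and at 10.2 CPM in YAP5SA on HFD, against 16.4 CPM in control on HFD. The YAP5SA values on HFD in this cluster rest on 4 UMIs of each gene in 83 nuclei, so no direction is read from them. In the Art5 cluster Col4a4 was at 29.8 CPM in YAP5SA on chow, against 13.3 CPM in control on chow, and at 17.8 CPM in YAP5SA on HFD, against 18.6 CPM in control on HFD. The control values of Col4a4 there rest on 5 UMIs on chow and 2 on HFD, and that of Col4a3 on chow on 3 UMIs. A cycling cluster led by Ect2 and Lockd, whose share of the class ranged from 3.21% to 5.31% over the 4 libraries, held far more α3 and α4 transcripts with YAP5SA. Col4a3 stood at 966 CPM in YAP5SA on chow, against 27.6 CPM in control on chow, and at 919 CPM in YAP5SA on HFD, against 28.6 CPM in control on HFD. Col4a4 in these cycling nuclei was at 1012 CPM in YAP5SA on chow, against 39.5 CPM in control on chow, and at 883 CPM in YAP5SA on HFD, against 27.6 CPM in control on HFD. Col4a5 there was at 463 CPM in YAP5SA on chow, against 178 CPM in control on chow, and at 524 CPM in YAP5SA on HFD, against 182 CPM in control on HFD.

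**Figure D2:**
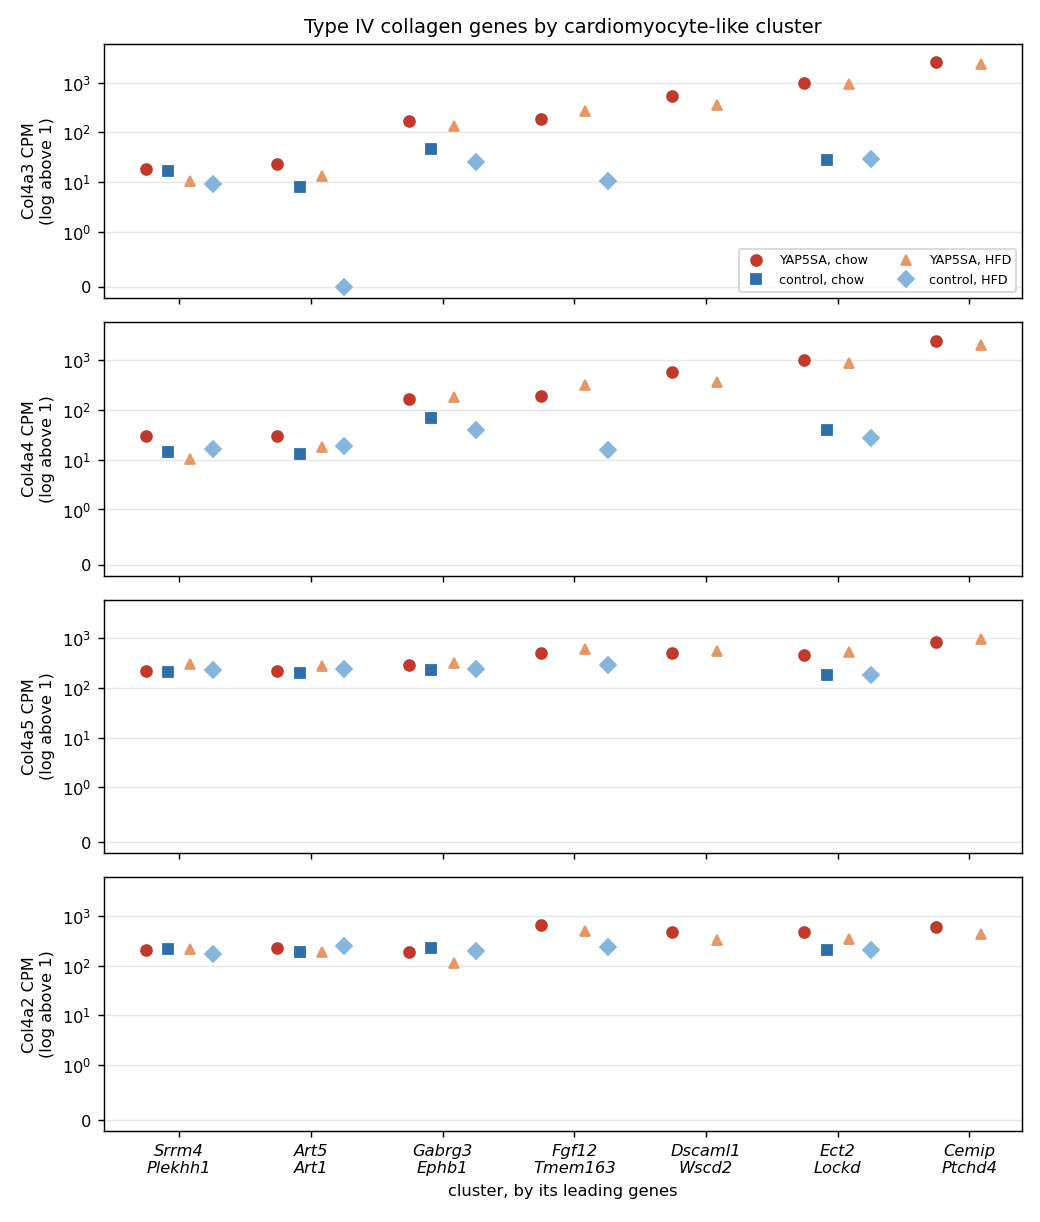
Levels of Col4a3, Col4a4, Col4a5 and Col4a2 in 7 of the 8 cardiomyocyte-like clusters, named by their leading genes, in CPM, for libraries with at least 20 nuclei in the cluster. The cluster led by Cemip and Ptchd4 has the highest Col4a3 level (2607 CPM in YAP5SA on chow and 2391 CPM in YAP5SA on HFD), and the cycling cluster led by Ect2 and Lockd stands at 966 and 919 CPM in the YAP5SA libraries, against 27.6 and 28.6 CPM in the control libraries.

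Without the cluster led by Cemip and Ptchd4, an alternative chosen after seeing the data, the log2 folds in cardiomyocyte-like nuclei were 4.19 on chow and 3.76 on HFD for Col4a3 and 4.30 and 3.10 for Col4a4. They were 0.86 and 0.74 for Col4a5, and 2 of 6 members then passed 2-fold on each diet. The α3 and α4 genes were thus still the members that differed most, by a smaller amount, in the remaining nuclei.

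In the YAP5SA libraries, Col4a3 and Col4a4 were often found in the same cardiomyocyte-like nuclei. In YAP5SA on chow 53.6% of cardiomyocyte-like nuclei held a Col4a3 UMI (median depth 5015 UMIs), against 8.50% in control on chow (5807 UMIs), and in YAP5SA on HFD 33.6% did (4904 UMIs), against 6.44% in control on HFD (6009 UMIs). In endothelial-like nuclei, a type that should hold little of it, the share was 6.20% in YAP5SA on chow (median 2716 UMIs), against 1.54% in control on chow (3397.5 UMIs), and 3.83% in YAP5SA on HFD (2303 UMIs), against 1.90% in control on HFD (3328 UMIs). The YAP5SA cardiomyocyte-like shares thus stood well above the endothelial-like ones. For thinning, nuclei under 2000 UMIs were left out and the others were thinned to 2000 UMIs. The cardiomyocyte-like shares were then 44.9% in YAP5SA on chow, against 3.48% in control on chow, and 26.4% in YAP5SA on HFD, against 2.13% in control on HFD.

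Of YAP5SA nuclei on chow with a Col4a3 UMI, 87.9% also held a Col4a4 UMI, against 19.5% of those without one. On HFD the shares were 80.7% and 11.4% in YAP5SA. In control the shares were lower, 21.9% with and 7.65% without Col4a3 on chow, and 28.0% and 9.48% on HFD. After thinning to 2000 UMIs the shares with and without Col4a3 were 84.3% and 16.0% in YAP5SA on chow, against 9.09% and 3.37% in control on chow. On HFD they were 76.3% and 8.95% with YAP5SA, against 12.7% and 3.67% in control. All these shares are over the whole class, whose clusters differ widely in both genes. The part of that mix was not tested, and no share was taken within a cluster.

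The sum of Col4a3 and Col4a4 UMIs per nucleus was wide in YAP5SA. At least 5 UMIs were found in 42.4% of cardiomyocyte-like nuclei in YAP5SA on chow, against 0.508% in control on chow, and in 23.2% in YAP5SA on HFD, against 0.267% in control on HFD. No UMI of either gene was found in 37.3% of nuclei in YAP5SA on chow, against 84.5% in control on chow, and in 58.8% in YAP5SA on HFD, against 84.7% in control on HFD. The highest nucleus held 310 UMIs in YAP5SA on chow, against 20 in control on chow, and 209 in YAP5SA on HFD, against 8 in control on HFD. YAP5SA libraries thus mixed many nuclei rich in these transcripts with many in which none was detected at this depth.

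Among YAP5SA nuclei, those rich in Col4a3 and Col4a4 had higher levels of the other members as well. On chow Col4a5 stood at 730 CPM in nuclei with at least 5 UMIs of the pair, 384 CPM in those with 1 to 4, and 295 CPM in those with 0, whose median depths were 5933, 4825.5 and 4205 UMIs. On HFD the Col4a5 levels were 820, 471 and 320 CPM in the same order. For Col4a2 the levels on chow were 572, 370 and 306 CPM, and on HFD 412, 278 and 227 CPM. Col4a5 in control nuclei with 0 UMIs of the pair stood at 208 CPM on chow and 228 CPM on HFD, below every one of these YAP5SA levels of Col4a5. The part of depth in these differences was not tested, although CPM is set against the total of each set of nuclei.

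Free RNA in the droplets adds some UMIs to nuclei of every kind. Cardiomyocyte markers in endothelial-like nuclei stood at 4.87% of their cardiomyocyte-like level in YAP5SA on chow, against 3.80% in control on chow, and at 3.81% in YAP5SA on HFD, against 4.06% in control on HFD. Col4a3 in endothelial-like nuclei was at 1.97% of its cardiomyocyte-like level in YAP5SA on chow and at 2.36% in YAP5SA on HFD, a smaller part than the cardiomyocyte markers. In control, where the cardiomyocyte-like level was itself low, the parts were 20.4% on chow and 40.4% on HFD, from 3.82 and 4.96 CPM in endothelial-like nuclei. The part of free RNA in the differences of Col4a3 and Col4a4 between YAP5SA and control in other classes was not tested.

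The pairs differed in which cell classes held them. Over the 4 libraries, Col4a1 was highest in pericyte-like nuclei (mean 1354 CPM, range 1065 to 1645) and endothelial-like nuclei (1181 CPM, 1066 to 1408), 2 neighbours whose ranges overlap. Fibroblast-like nuclei followed (661 CPM, 471 to 922), then endocardial-like (352 CPM), epicardial-like (203 CPM), cardiomyocyte-like (180 CPM, 115 to 274) and macrophage-like nuclei (147 CPM). Col4a2 had a like order, with means of 932 CPM in pericyte-like and 837 CPM in endothelial-like nuclei, except that cardiomyocyte-like nuclei (285 CPM, 181 to 452) stood above endocardial-like nuclei (213 CPM, 165 to 271) by the mean, with overlapping ranges and the opposite order in control on HFD. The α1 and α2 genes were thus highest in pericyte-like and endothelial-like nuclei among the classes compared. Smooth muscle-like nuclei, too few for this order, were lower, at 447 to 523 CPM of Col4a1 and 257 to 325 CPM of Col4a2.

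Col4a3 and Col4a4 had another order. In the control libraries Col4a3 was highest in endocardial-like nuclei (241 CPM on chow and 235 CPM on HFD) and epicardial-like nuclei (200 CPM and 193 CPM), the lining cells of the heart's inner and outer surfaces. Cardiomyocyte-like nuclei of the YAP5SA libraries, at 1077 and 617 CPM, lay above both. Col4a4 in epicardial-like nuclei was at 482 CPM in YAP5SA on chow, against 543 CPM in control on chow, and at 558 CPM in YAP5SA on HFD, against 409 CPM in control on HFD. Endothelial-like nuclei held little, a mean of 11.1 CPM of Col4a3 and 18.8 CPM of Col4a4, and macrophage-like nuclei 10.9 and 20.8 CPM. Among the classes of the control libraries this pair was thus highest in the lining cells.

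Col4a5 and Col4a6 were both high in epicardial-like nuclei, with means of 356 CPM (275 to 440) and 127 CPM (97.1 to 167). Cardiomyocyte-like nuclei held Col4a5 (368 CPM, 210 to 530) with little Col4a6 (17.4 CPM), and the Col4a5 ranges of these classes overlap. Fibroblast-like nuclei held 145 CPM of Col4a5 and 68.9 CPM of Col4a6, while endothelial-like nuclei held 21.7 and 1.07 CPM. The partners of this pair thus differed in their order of classes.

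**Figure D3:**
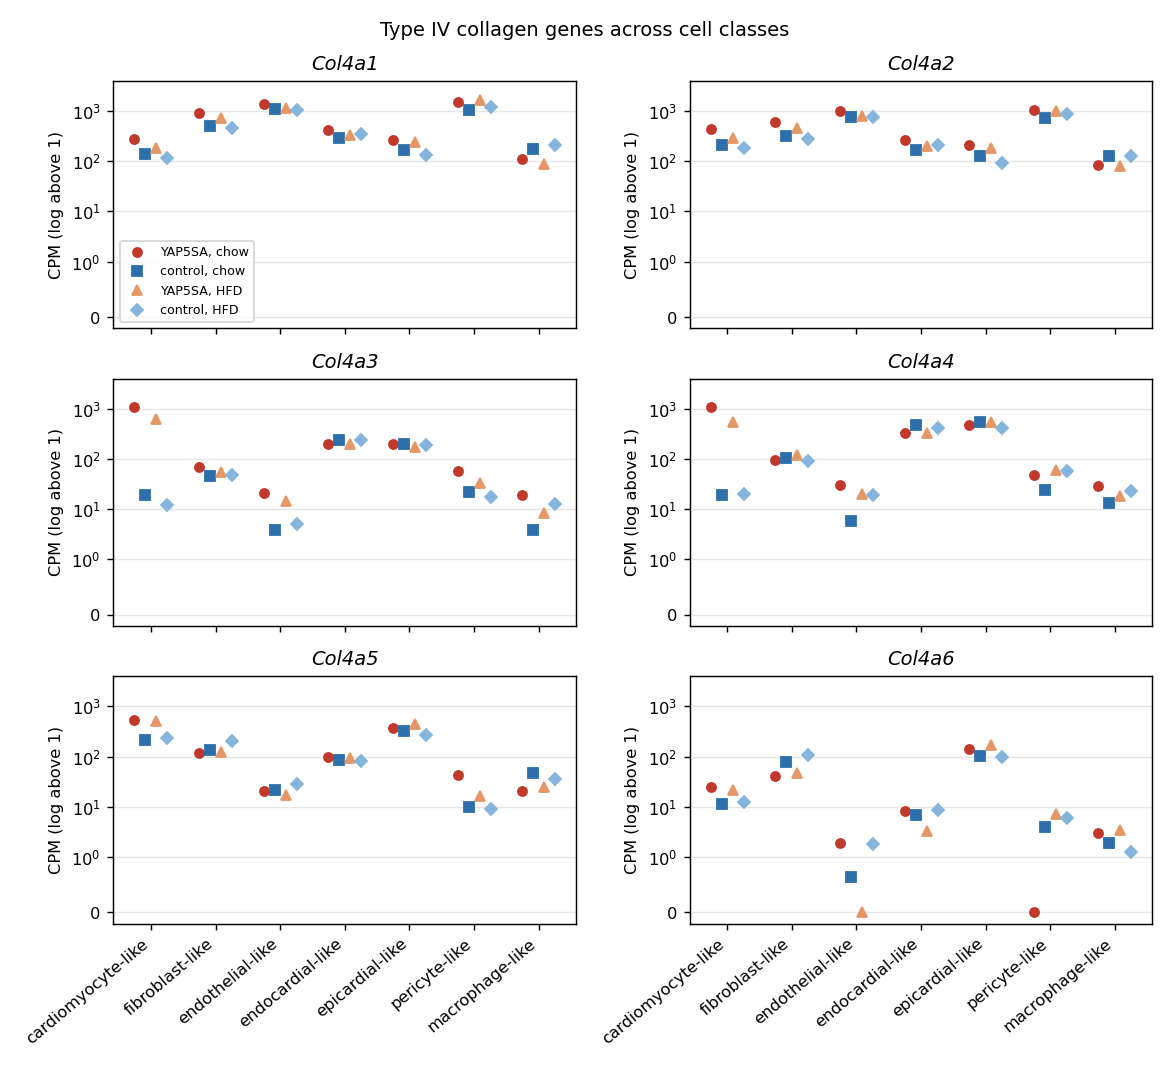
Levels of each type IV collagen gene in 7 cell classes, in CPM on a log axis, with 1 point per library. Col4a1 and Col4a2 are highest in pericyte-like and endothelial-like nuclei, and Col4a3 and Col4a4 in the control libraries are highest in endocardial-like and epicardial-like nuclei.

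Over 28 sums (7 classes in 4 libraries), Pearson's correlation of log2(CPM + 1) was 0.97 between Col4a3 and Col4a4, 0.94 between Col4a1 and Col4a2 and 0.77 between Col4a5 and Col4a6. Sums of 1 library share its preparation, and sums of 1 class share its composition, so these are descriptions. Among 14728 other genes, the ones most like the mean of Col4a3 and Col4a4 were C430014B12Rik (0.93), which overlaps Col4a3, Nr6a1 (0.88), Tgfb2 (0.87), Cemip (0.87) and Ncam1 (0.84). The ones most like Col4a1 and Col4a2 were Gm15418 (0.94), which overlaps Col4a1, Itga1 (0.91), Gm28055 (0.91), Trib2 (0.90) and Map1b (0.88). Those most like Col4a5 and Col4a6 were Bmper (0.95), Plekha6 (0.93), Gm10115 (0.92), Thsd7b (0.91) and Efna5 (0.91).

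The balance within each pair was taken as the share of its UMIs from the first gene. These shares also depend on gene length and capture, so only classes and groups are compared. Col4a1 made up 37.7% of the Col4a1 and Col4a2 UMIs of cardiomyocyte-like nuclei in YAP5SA on chow, against 39.8% in control on chow, and 39.1% in YAP5SA on HFD, against 38.9% in control on HFD. In endocardial-, endothelial-, epicardial-, fibroblast- and pericyte-like nuclei it made up 55.3% to 63.6% in each library. Cardiomyocyte-like nuclei thus leaned to Col4a2 in all 4 libraries, without overlap with the 5 other classes.

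For the second pair, Col4a3 made up 50.3% of the pair's cardiomyocyte-like UMIs in YAP5SA on chow, against 49.4% in control on chow, and 53.0% in YAP5SA on HFD, against 38.0% in control on HFD. In epicardial-like nuclei it made up 29.1% in YAP5SA on chow, against 26.9% in control on chow, and 24.0% in YAP5SA on HFD, against 32.0% in control on HFD. Epicardial-like nuclei thus leaned further to Col4a4 than cardiomyocyte-like ones in every library, though the counting intervals overlapped in control on HFD. These were 28.9% to 35.2% in epicardial-like and 34.3% to 41.9% in cardiomyocyte-like nuclei. Endocardial-like nuclei were at 33.4% to 38.1% over the libraries and fibroblast-like nuclei at 30.8% to 41.9%. For the third pair, Col4a5 made up 94.9% to 96.0% in cardiomyocyte-like nuclei over the 4 libraries and 72.4% to 76.5% in epicardial-like nuclei. In fibroblast-like nuclei it made up 74.2% in YAP5SA on chow, against 63.8% in control on chow, and 71.7% in YAP5SA on HFD, against 64.9% in control on HFD.

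**Figure D4:**
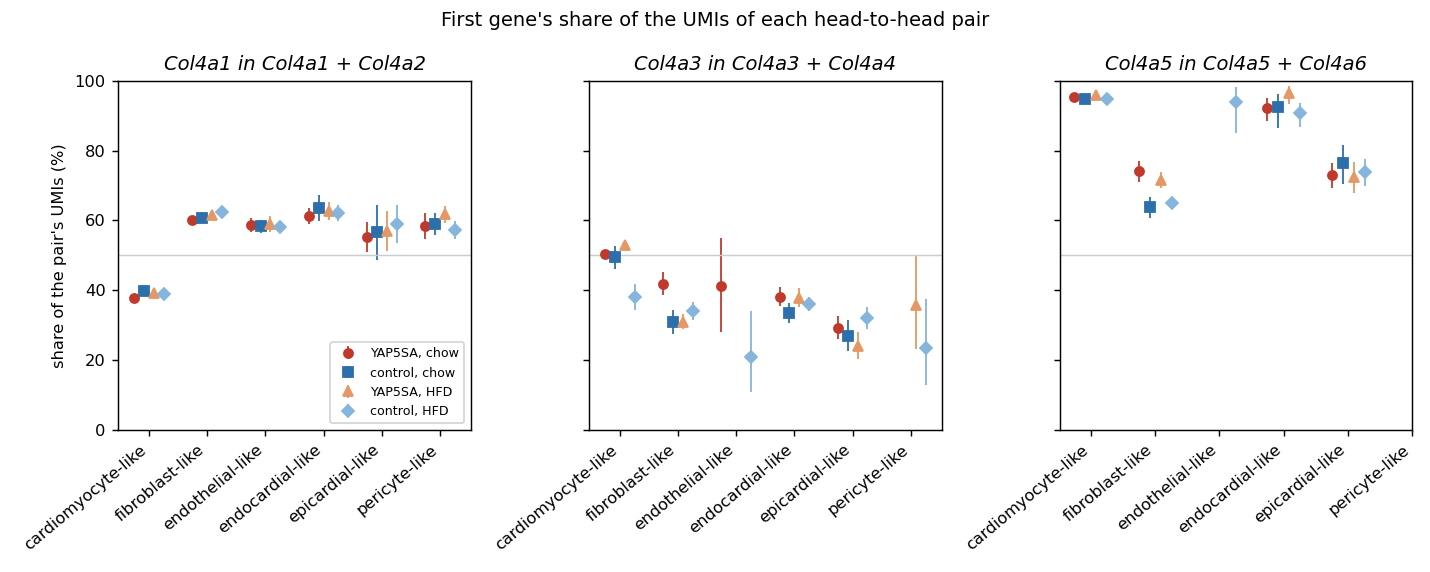
Share of each pair's UMIs that comes from its first gene (Col4a1, Col4a3 or Col4a5), in percent, by cell class and library, with exact Clopper-Pearson 95% intervals for counting error. Cardiomyocyte-like nuclei lie at 37.7% to 39.8% for Col4a1, below the 5 other classes, and at 94.9% to 96.0% for Col4a5.

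In the other classes the YAP5SA libraries could be tested against the control libraries, 2 against 2 with both diets pooled, by edgeR's quasi-likelihood test over all genes of the class. Since these libraries differ in diet, the test takes diet as part of the spread. In fibroblast-like nuclei Col4a1 and Col4a2 rose and Col4a6 fell, so 2 of 6 members rose, where 6.91% of 15294 genes did, and 1 fell, where 5.66% did. Col4a1 stood at 922 CPM in YAP5SA on chow, against 506 CPM in control on chow, and at 745 CPM in YAP5SA on HFD, against 471 CPM in control on HFD (edgeR log2 fold 0.66, SE 0.15, adjusted p = 0.0290). Col4a2 stood at 612 CPM in YAP5SA on chow, against 327 CPM in control on chow, and at 467 CPM in YAP5SA on HFD, against 283 CPM in control on HFD (edgeR log2 fold 0.71, SE 0.17, adjusted p = 0.0305). For both genes the 2 YAP5SA libraries lay above the 2 control libraries. Neither call held in edgeR without control on chow (adjusted p = 0.138 and 0.0833), without control on HFD (0.233 and 0.232) or with stricter filters on nuclei (0.231 and 0.252), and with those filters Col4a3 (0.0348) and Col4a4 (0.0410) passed in their place.

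Col4a6 in fibroblast-like nuclei stood at 41.4 CPM in YAP5SA on chow, against 78.0 CPM in control on chow, and at 47.9 CPM in YAP5SA on HFD, against 108 CPM in control on HFD. It fell by 1.18 on the log2 scale (SE 0.19, edgeR adjusted p = 0.00668), with both YAP5SA libraries below both control libraries. Its partner Col4a5 was at 119 CPM in YAP5SA on chow, against 137 CPM in control on chow, and at 121 CPM in YAP5SA on HFD, against 201 CPM in control on HFD, and did not pass (edgeR log2 fold -0.61, SE 0.18, adjusted p = 0.0657). It passed without control on chow (0.0248), without YAP5SA on chow (0.0375), with diet as a term (0.0414), with no filter on low counts (0.00103) and with DESeq2 (0.0364). Its log2 fold was -0.31 without control on HFD and -0.12 with stricter filters on nuclei, where it did not pass. Col4a3, at 70.0 CPM in YAP5SA on chow, against 46.1 CPM in control on chow, and 54.7 CPM in YAP5SA on HFD, against 46.7 CPM in control on HFD, did not pass (edgeR adjusted p = 0.301). Neither did Col4a4 (edgeR log2 fold 0.06, adjusted p = 0.840). Cardiomyocyte markers in fibroblast-like nuclei stood at 2.78% of their cardiomyocyte-like level in YAP5SA on chow and 2.30% in YAP5SA on HFD. Col4a3 in these nuclei stood at 6.50% and 8.86% of its cardiomyocyte-like level. The part of free RNA in the fibroblast-like Col4a3 and Col4a4 values, and in their calls with stricter filters, was not tested.

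Different clusters also held most of the fibroblast-like class. One led by Ltbp2, Cilp and Tnc held 59.5% of it in YAP5SA on chow, against 9.51% in control on chow, and 56.6% in YAP5SA on HFD, against 5.62% in control on HFD, while one led by Scara5 and Pcsk6 held 3.94% in YAP5SA on chow, against 64.4% in control on chow, and 6.47% in YAP5SA on HFD, against 64.6% in control on HFD. Within the Ltbp2 cluster Col4a1 was at 982 CPM in YAP5SA on chow, against 814 CPM in control on chow, and at 855 CPM in YAP5SA on HFD, against 868 CPM in control on HFD. So within it the sign differed between diets. In the other fibroblast-like clusters, led by Col24a1, by Scara5 and by Neil3, Col4a1 was higher with YAP5SA on both diets. On chow it was at 881, 590 and 869 CPM with YAP5SA, against 451, 487 and 530 CPM in control. On HFD it was at 601, 544 and 654 CPM with YAP5SA, against 425, 465 and 449 CPM in control. Col4a6 was lower with YAP5SA in each of the 4 fibroblast-like clusters on both diets, for example at 33.4 CPM in YAP5SA on chow, against 41.4 CPM in control on chow, and at 47.9 CPM in YAP5SA on HFD, against 78.0 CPM in control on HFD within the Ltbp2 cluster. In the cluster led by Col24a1 and Thsd7b, where Col4a6 was highest, it was at 103 CPM in YAP5SA on chow, against 192 CPM in control on chow, and at 123 CPM in YAP5SA on HFD, against 210 CPM in control on HFD.

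In endothelial-like nuclei 0 of 5 tested members passed edgeR's test, where 0.583% of 10639 genes rose and 0.564% fell. Col4a3 had an unadjusted p under 0.05 and an edgeR adjusted p of 0.0697 (log2 fold 1.96), from 23 UMIs in YAP5SA on chow, against 6 in control on chow, and 13 in YAP5SA on HFD, against 11 in control on HFD. With finer clustering its log2 fold was 0.13, but no endocardial-like class formed there and the endothelial-like class was far larger. That class held 959 nuclei in YAP5SA on chow and 618 in control on chow, against 355 and 390 in the main clustering. So the 0.13 is not a value of the same nuclei. In the main clustering Col4a3 passed with no filter on low counts (0.00229), and DESeq2 called 0 members and gave Col4a3 no adjusted p. Col4a1 there stood at 1408 CPM in YAP5SA on chow, against 1089 CPM in control on chow, and at 1160 CPM in YAP5SA on HFD, against 1066 CPM in control on HFD. In endocardial-like nuclei 0 of 6 members passed edgeR's test, where 0.827% of 12330 genes rose and 1.16% fell. One member, Col4a4, had an unadjusted p under 0.05, and DESeq2 called 0. It stood at 326 CPM in YAP5SA on chow, against 482 CPM in control on chow, and at 328 CPM in YAP5SA on HFD, against 416 CPM in control on HFD (edgeR log2 fold -0.49, adjusted p = 0.193). In pericyte-like nuclei 0 of 4 tested members passed edgeR's test, where 0.271% of 7747 genes rose and 0.116% fell. There 2 members had an unadjusted p under 0.05, DESeq2 called 0, and Col4a1 had an edgeR adjusted p of 0.208, which was 0.0103 without YAP5SA on chow. A p that misses the threshold does not show that the levels were alike.

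**Figure D5:**
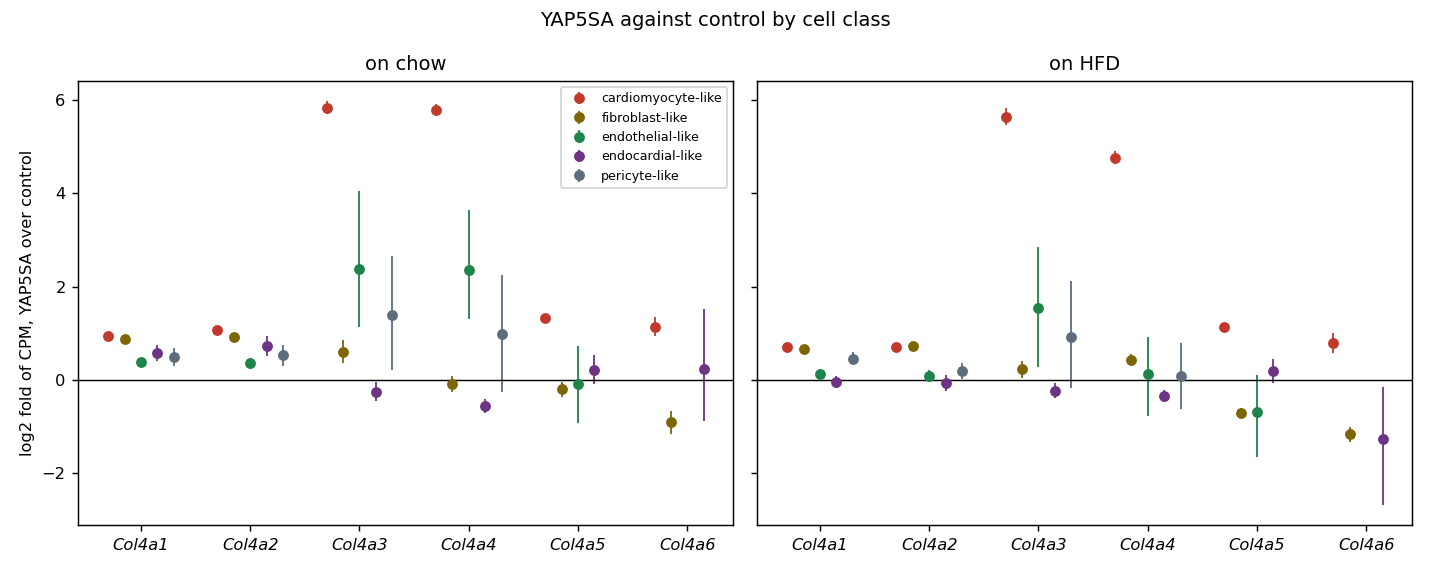
Log2 folds of YAP5SA over control for the 6 type IV collagen genes in 5 cell classes, on chow and on HFD, with 95% intervals for counting error. Col4a3 and Col4a4 reach 5.84 and 5.79 in cardiomyocyte-like nuclei on chow, and Col4a6 is below 0 in fibroblast-like nuclei on both diets.

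By diet, 0 of 6 members differed 2-fold in cardiomyocyte-like nuclei. With YAP5SA, where HFD against chow took 3.93% of genes at least 2-fold higher and 1.04% lower, Col4a3 stood at 617 CPM on HFD, against 1077 CPM on chow, and Col4a4 at 547 CPM on HFD, against 1063 CPM on chow. Their log2 differences were -0.80 (counting interval -0.83 to -0.78) and -0.96 (-0.99 to -0.93). Col4a5 differed by -0.08 and Col4a6 by -0.25. In control, where 1.36% of genes were at least 2-fold higher on HFD and 0.697% lower, Col4a3 differed by -0.61 (-0.84 to -0.38) and Col4a4 by 0.06. Each is 1 library against 1, with sex differing in YAP5SA, so no test was made. The YAP5SA library on HFD also held 16.2% of its cardiomyocyte-like nuclei in the cluster led by Cemip and Ptchd4, against 27.6% on chow, and its part in these differences was not tested. Inside that cluster Col4a3 was at 2391 CPM on HFD, against 2607 CPM on chow.

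Over the 5 classes compared (cardiomyocyte-, fibroblast-, endothelial-, endocardial- and pericyte-like), 27 combinations of member and class reached a mean of 10 CPM. With YAP5SA, 0 of 27 were at least 2-fold higher on HFD, where 4.27% of all such combinations of gene and class were, and 1 was lower, where 2.83% were. It was Col4a5 in pericyte-like nuclei, with 9 UMIs on HFD, against 12 UMIs on chow (15.9 and 43.3 CPM). In control, 2 of 27 were at least 2-fold higher on HFD, where 1.71% of all combinations were, and 0 were lower, where 1.33% were. Both were Col4a4, in endothelial-like nuclei with 42 UMIs on HFD, against 9 UMIs on chow, and in pericyte-like nuclei with 39 UMIs on HFD, against 12 UMIs on chow. These 3 rest on few UMIs of 1 library each.

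The genes that make, secrete and bind type IV collagen were tested in cardiomyocyte-like nuclei over the same 2 against 2 libraries. Of 63 genes tested in 5 lists, 19 rose and 6 fell, where 7.87% of 16903 genes rose and 4.3% fell (edgeR, adjusted p under 0.05). Without the cluster led by Cemip and Ptchd4, 8 rose and 1 fell. The lists were drawn up with earlier results of these libraries known.

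Of 19 processing genes 5 rose and 0 fell (0 lower at an unadjusted p under 0.05, and 0 fell by DESeq2), with a median log2 fold of 0.18. Plod2, a lysyl hydroxylase of collagen chains, stood at 756 CPM in YAP5SA on chow, against 38.0 CPM in control on chow, and at 461 CPM in YAP5SA on HFD, against 37.7 CPM in control on HFD (edgeR log2 fold 3.95, SE 0.32, adjusted p = 0.00196). P4ha1, the catalytic subunit of prolyl 4-hydroxylase, which stabilises the triple helix, stood at 211 CPM in YAP5SA on chow, against 32.5 CPM in control on chow, and at 150 CPM in YAP5SA on HFD, against 32.8 CPM in control on HFD (edgeR log2 fold 2.41, SE 0.25, adjusted p = 0.00365). P4ha3 (1.82), P3h2, a prolyl 3-hydroxylase known to act on type IV collagen (1.67), and Serpinh1, the collagen chaperone Hsp47 (1.23), rose as well, with edgeR adjusted p of 0.0196, 0.0188 and 0.0293. Without the cluster led by Cemip and Ptchd4, 2 of the 5 still rose, Plod2 and P4ha1. The call for Serpinh1 was also lost without control on chow (edgeR adjusted p = 0.0645).

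Of 6 crosslinking genes 2 rose, Lox (log2 fold 2.35) and Loxl3 (1.96), and 0 fell (0 at an unadjusted p under 0.05 and 0 by DESeq2). Both are lysyl oxidases, known chiefly for fibrillar collagens and elastin, and neither rose without the cluster led by Cemip and Ptchd4. Lox stood at 10.5 and 6.96 CPM in YAP5SA on chow and HFD, against 1.54 and 1.76 CPM in control. Loxl3 was low, at 3.52 and 3.06 CPM in YAP5SA on chow and HFD, against 0.73 and 0.88 CPM in control. The call for Loxl3 was also lost without control on chow (edgeR adjusted p = 0.126) and without control on HFD (0.0657). Pxdn, the peroxidasin that links type IV collagen trimers by sulfilimine bonds, did not pass (edgeR adjusted p = 0.550). It stood at 105 CPM in YAP5SA on chow, against 180 CPM in control on chow, and at 152 CPM in YAP5SA on HFD, against 112 CPM in control on HFD, opposite in sign on the 2 diets.

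Of 12 receptor genes 6 rose and 0 fell (0 lower at an unadjusted p under 0.05 and 0 fell by DESeq2), with a median log2 fold of 1.22. Adgrg6, an adhesion receptor that binds type IV collagen, stood at 42.9 CPM in YAP5SA on chow, against 0.983 CPM in control on chow, and at 24.4 CPM in YAP5SA on HFD, against 1.51 CPM in control on HFD (edgeR log2 fold 4.70, SE 0.44, adjusted p = 0.00289). Ddr1, a collagen receptor kinase, stood at 264 CPM in YAP5SA on chow, against 53.7 CPM in control on chow, and at 143 CPM in YAP5SA on HFD, against 37.4 CPM in control on HFD (edgeR log2 fold 2.12, adjusted p = 0.0166). Ddr2, a receptor kinase known mostly for fibrillar collagens (4.01), and Itga3, an integrin chain known mostly for laminins (1.89), also rose, with edgeR adjusted p of 0.00652 and 0.0155. Itga1, the α chain of the collagen IV receptor integrin α1β1, was at 210 CPM in YAP5SA on chow, against 71.0 CPM in control on chow, and at 128 CPM in YAP5SA on HFD, against 90.9 CPM in control on HFD, and did not pass (edgeR adjusted p = 0.0869); it passed without YAP5SA on HFD (0.00702) or without control on HFD (0.0409). Without the cluster led by Cemip and Ptchd4, 2 of the 6 rose, Adgrg6 and Ddr2.

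Of 7 turnover genes 2 rose and 1 fell. Timp1 (log2 fold 2.40) and Timp2 (1.29), inhibitors of matrix metalloproteinases, rose with edgeR adjusted p of 0.0114 and 0.0106. Timp1 was low, at 5.43 and 5.29 CPM in YAP5SA on chow and HFD, against 0.85 and 1.08 CPM in control. Mmp15, a membrane-bound metalloproteinase, fell, at 35.0 CPM in YAP5SA on chow, against 72.4 CPM in control on chow, and 36.0 CPM in YAP5SA on HFD, against 80.2 CPM in control on HFD (edgeR log2 fold -1.18, adjusted p = 0.0114). Without the cluster led by Cemip and Ptchd4 only Timp1 of these 3 passed.

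Of 19 other basement membrane genes 4 rose and 5 fell. Npnt, the nephronectin gene (log2 fold 2.89), Fras1, of the Fraser complex (2.57), and Sparc, a collagen-binding matricellular protein (1.36), rose, with edgeR adjusted p of 0.0154, 0.0144 and 0.00632. Npnt was low, at 6.13 CPM in YAP5SA on chow, against 0.47 CPM in control on chow (11 UMIs). On HFD Npnt was at 4.32 CPM with YAP5SA, against 0.88 CPM in control (18 UMIs). Fras1 stood at 232 CPM in YAP5SA on chow, against 20.5 CPM in control on chow, and at 154 CPM in YAP5SA on HFD, against 41.6 CPM in control on HFD. Lamb1, a laminin β chain gene, fell, at 37.7 CPM in YAP5SA on chow, against 89.9 CPM in control on chow, and 38.7 CPM in YAP5SA on HFD, against 76.6 CPM in control on HFD (edgeR log2 fold -1.19, SE 0.17, adjusted p = 0.00947). Lama2, Lama4, Lamb2 and Frem2, named after their values were seen, made up the other 4 that fell, and all 4 lost that call without control on HFD (edgeR adjusted p = 0.218, 0.0628, 0.256 and 0.149). Hspg2, the perlecan gene, did not pass (edgeR log2 fold 0.19, adjusted p = 0.683). Npnt, Fras1, Sparc and Lamb1 were the genes of this list that passed without the cluster led by Cemip and Ptchd4.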

How the data were processed

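The deposited matrices hold raw UMI counts per gene and nucleus, with no normalization, for 4 libraries of whole mouse hearts; per the submitters' processing notes the authors used Cell Ranger 7.1.0 and mm10. No source used here names the gene annotation behind the counts or says whether intronic reads entered them. Of 32291 features, 6 are sequences that were added to the mouse genes. GENCODE vM21 (mm10) was joined by Ensembl identifier and held 32158 of 32285 genes.

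Barcodes under 500 genes or over 5% mitochondrial UMIs were dropped, 699 in YAP5SA on chow, 604 in control on chow, 432 in YAP5SA on HFD and 748 in control on HFD. Doublets were called with Scrublet in scanpy 1.11.5 (Python 3.11.15), and 601, 325, 717 and 379 were removed in that order. The automatic threshold served on HFD; on chow, where it marked under 0.5%, the top scores at 0.8% per 1000 nuclei were taken. Leiden clustering (igraph 0.11.9; 3000 variable genes, 30 components, 15 neighbours, resolution 1, seed 0) gave 23 clusters. A cluster was named where at least 3 markers of a type were present; this limit was chosen once the data had been seen. UMIs were summed per class and library. Log2 folds carry a prior of 0.5 counts and an exact conditional binomial 95% interval, levels an exact Poisson interval and shares an exact Clopper-Pearson interval (scipy 1.17.1). All intervals cover counting error only, and PCR or animal differences lie outside them.

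The 2 YAP5SA and 2 control libraries were compared over all genes with edgeR 4.0.16 (R 4.3.3; quasi-likelihood, TMM scaling, Benjamini-Hochberg adjustment, threshold 0.05), tested on simulated counts; DESeq2 1.42.0 was an alternative. As nothing says how many animals a library holds, p-values measure the spread between these libraries. The members and gene lists were chosen with earlier results of these data known. The text names all 6 members and, from each list, at most 4 called genes with the largest absolute log2 fold, plus Pxdn, Serpinh1, P4ha1, Itga1 and Hspg2. Likeness takes, for each pair, the 5 other genes with the highest correlation. Alternatives were other scalings, priors, filters and clusterings, the members left out of clustering, thinning, a diet term and each library left out.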

Additional observations from a re-analysis of the deposited data

Results flagged for a closer look

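For 4 combinations of member and class, the YAP5SA difference had the opposite sign to that in cardiomyocyte-like nuclei on both diets, with the counting intervals clear of 0 each time. Each is 1 library against 1, and the difference between classes was not tested. In endocardial-like nuclei the log2 fold of YAP5SA over control for Col4a3 was -0.26 on chow and -0.23 on HFD, against 5.84 and 5.65 in cardiomyocyte-like nuclei. For Col4a4 it was -0.56 on chow and -0.34 on HFD in endocardial-like nuclei, against 5.79 and 4.77 in cardiomyocyte-like nuclei. In fibroblast-like nuclei Col4a5 stood at -0.20 on chow and -0.72 on HFD, and Col4a6 at -0.91 on chow and -1.18 on HFD. In cardiomyocyte-like nuclei Col4a5 stood at 1.33 and 1.12 and Col4a6 at 1.13 and 0.78.

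An added sequence named nsp13, not a mouse gene, gave 599 UMIs in YAP5SA on chow, against 0 in control on chow, and 244 UMIs in YAP5SA on HFD, against 1 in control on HFD. What it stands for in these mice is not given in the labels. It was found in 326 cardiomyocyte-like nuclei of YAP5SA on chow and in 151 of YAP5SA on HFD. Col4a3 stood at 2112 CPM in those nuclei on chow, against 976 CPM in the nuclei without it, and at 1489 CPM on HFD, against 581 CPM without it. Nuclei with an nsp13 UMI were deeper, with medians of 6493.5 UMIs on chow, against 4926.5 without it, and 6457 UMIs on HFD, against 4865 without it, and the part of depth was not tested.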

How the results depend on the processing

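No paired analysis was possible because each group is 1 library and the labels give no replicate numbers that pair libraries; a fit with diet as a term, which sets each YAP5SA library beside the control of its diet, was run instead. The direction of all 6 members between YAP5SA and control in cardiomyocyte-like nuclei held under every alternative run. Across them the log2 fold of Col4a3 ranged from 4.19 to 5.88 on chow and from 3.76 to 5.67 on HFD, and that of Col4a4 from 4.30 to 5.83 and from 3.10 to 4.78. The number of members at least 2-fold higher on chow was 5, with 3 under finer clustering and 2 without the cluster led by Cemip and Ptchd4; on HFD it was 3, with 2 under those settings and under TMM or DESeq2 scaling. By diet the count of 3 was 4 with TMM scaling or stricter filters. Of nuclei with Col4a3, the share with Col4a4 was 87.9% in YAP5SA on chow, 84.3% after thinning and 83.5% with finer clustering, and 80.7%, 76.3% and 74.5% in YAP5SA on HFD. In the tested classes 2 members rose and 1 fell; 3 rose with no filter on low counts, and 2 fell with DESeq2, a diet term or no filter. With each library left out, 0 to 3 rose and 1 to 2 fell, the lone library of an arm being assumed to vary like the others. Neither of the 2 that rose passed without control on chow or without control on HFD. Of the pathway genes 19 rose and 6 fell; 8 rose and 1 fell without the cluster led by Cemip and Ptchd4, 13 rose and 3 fell with finer clustering, 19 rose and 5 fell with a diet term, and with each library left out 16 to 24 rose and 2 to 5 fell. Of the values for single genes, 902 kept their side of the threshold or stayed within the spread, 49 no longer passed, 20 newly passed and 35 moved; none changed sign past the threshold. Endocardial-like nuclei formed no class under finer clustering or stricter filters, so those settings give no value there. Under finer clustering the endothelial-like class was far larger than in the main clustering, so its values are not of the same nuclei. Intervals and depth cannot show differences between animals.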

Other observations

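Smooth muscle-like nuclei were too few for the comparisons, at 48 in YAP5SA on chow, 35 in control on chow, 102 in YAP5SA on HFD and 97 in control on HFD, but stood out among classes for Col4a6. Its level there was 232 CPM in YAP5SA on chow, against 572 CPM in control on chow, and 285 CPM in YAP5SA on HFD, against 352 CPM in control on HFD. Each of these values was above the epicardial-like range of 97.1 to 167 CPM. Col4a5 in the same nuclei was at 358 CPM in YAP5SA on chow, against 482 CPM in control on chow, and at 185 CPM in YAP5SA on HFD, against 315 CPM in control on HFD. Col4a5 made up 60.7% of the pair's UMIs in YAP5SA on chow, against 45.7% in control on chow, and 39.4% in YAP5SA on HFD, against 47.3% in control on HFD, lower in every library than the 94.9% to 96.0% of cardiomyocyte-like nuclei.

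An atrial cardiomyocyte-like cluster led by Fgf12 and Tmem163, with 79 nuclei in YAP5SA on chow, 194 in YAP5SA on HFD and 84 in control on HFD, had the highest Col4a6 of the cardiomyocyte-like clusters, at 81.9 CPM in YAP5SA on chow and 94.1 CPM in YAP5SA on HFD, against 80.2 CPM in control on HFD. Its Col4a1 stood at 466 CPM in YAP5SA on chow and at 312 CPM in YAP5SA on HFD, against 151 CPM in control on HFD. In control on chow the cluster held 14 nuclei, and no value is given.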
